A study of Rattus norvegicus with 12 samples.

Results

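The genes described here are the tripartite motif (TRIM) family in cultured rat astrocytes. A gene was taken as a member when its row of the deposited value table was paired with exactly 1 gene in the array annotation and its symbol was Trim followed only by digits. The rule found 49 members among the 18166 named genes, and each had a single row. A further 2 genes, Trim30d and Trim43a, carry a letter after the digits and were left out by the rule. Most TRIM proteins have an N-terminal RING domain, B-box and coiled coil, and most act as ubiquitin ligases. The C-terminal domain differs between subgroups: a PRY-SPRY domain in many antiviral members, NHL repeats, a PHD finger with a bromodomain in the chromatin members, or a COS box in members that bind microtubules. Several members are transcribed in response to interferons and either restrict viruses directly or adjust the sensing of foreign nucleic acid.

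RNA was measured on 12 whole-transcript arrays of primary cortical astrocytes from Sprague-Dawley rats 1 day of age, 3 arrays in each of 4 groups. All cultures had been transfected with an siRNA, and all had first been held without serum, a step meant to remove microglia and meningeal cells. The groups were control siRNA without treatment (siCon), control siRNA with IFN-γ (siCon_IFNg), control siRNA with IFN-γ and a compound named only GW in the labels (siCon_IFNg_GW), and SHP siRNA with IFN-γ and GW (siSHP_IFNg_GW). No group had SHP siRNA without GW, or GW without IFN-γ. Treatment lasted 3 h. The sample titles also number the arrays 1, 2 and 3 within each group, and the labels do not say what this number stands for. Of the 12 arrays, 4 were taken over from an earlier series, and the text does not say which. The labels do not state that arrays of 1 group came from separate cultures. If they did not, the p-values here reflect technical spread only.

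The defining astrocyte genes were present: the median level of 8 astrocyte markers was 10.76 to 11.32 on the log2 scale over the 12 arrays. Markers of other cells were present as well. The median of 12 microglia markers was 8.47 to 9.46, and that of 8 meningeal and vascular markers was 6.15 to 6.44 on the arrays numbered 1 against 7.89 to 8.52 on the others. The siRNA target could not be checked. Nr0b2, the gene that encodes SHP, gave 4.70, 4.78 and 4.91 in siCon_IFNg_GW and 5.12, 4.94 and 4.81 in siSHP_IFNg_GW, all under the background level. That level, 5.34, is the 95th percentile of the mean values of 1343 olfactory and vomeronasal receptor genes.

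Promoter sequences are shown for 4 members on which the results turn. They are RefSeq sequences of assembly GRCr8, 300 bases each around the annotated start, and 40 of the 49 members had one. Trim21 (chr1:166399322-166399621, minus strand) and Trim26 (chr20:1736262-1736561, minus strand) held a pair of matches to GAAANNGAA, the repeated core that interferon regulatory factors bind. Trim25 (chr10:74309774-74310073, plus strand) moved with Trim21 in the data, and Trim17 (chr10:44242438-44242737, plus strand) was the member called with GW. Capitals mark the matches, and Trim25 and Trim17 have none in this window. Each sequence reads 5′ to 3′ in the direction of transcription.

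Trim21: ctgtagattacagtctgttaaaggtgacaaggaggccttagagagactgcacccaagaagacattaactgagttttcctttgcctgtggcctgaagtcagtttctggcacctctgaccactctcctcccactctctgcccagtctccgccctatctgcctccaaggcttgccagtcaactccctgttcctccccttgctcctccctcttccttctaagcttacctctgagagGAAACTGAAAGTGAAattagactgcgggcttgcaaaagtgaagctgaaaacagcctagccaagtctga

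Trim26: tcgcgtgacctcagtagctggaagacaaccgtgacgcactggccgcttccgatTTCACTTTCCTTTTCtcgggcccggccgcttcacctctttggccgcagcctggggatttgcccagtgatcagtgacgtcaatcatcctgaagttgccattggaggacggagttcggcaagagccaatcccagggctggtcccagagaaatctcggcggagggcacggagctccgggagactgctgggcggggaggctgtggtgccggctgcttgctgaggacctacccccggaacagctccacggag

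Trim25: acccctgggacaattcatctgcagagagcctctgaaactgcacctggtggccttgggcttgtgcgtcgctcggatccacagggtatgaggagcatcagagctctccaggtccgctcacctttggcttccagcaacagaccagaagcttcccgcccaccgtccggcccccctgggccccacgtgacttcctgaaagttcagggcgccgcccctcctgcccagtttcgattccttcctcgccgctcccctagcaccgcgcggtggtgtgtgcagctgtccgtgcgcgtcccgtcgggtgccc

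Trim17: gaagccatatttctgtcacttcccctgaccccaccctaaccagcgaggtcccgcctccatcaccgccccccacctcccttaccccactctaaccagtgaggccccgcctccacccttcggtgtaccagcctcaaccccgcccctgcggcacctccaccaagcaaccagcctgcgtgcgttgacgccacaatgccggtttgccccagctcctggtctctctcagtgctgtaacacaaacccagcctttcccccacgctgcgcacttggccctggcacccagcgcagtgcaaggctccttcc

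In Trim21 the first bases of the matches, as printed, lie 18 and 12 bases before the start, and the motif reads in the direction of transcription. In Trim26 they lie 197 and 191 bases before it, and the motif is on the opposite strand. The matches of a pair overlap by 3 bases. Such a pair, 6 bases apart on 1 strand, was found in 2 of 40 member promoters (5%) and in 66 of all 33469 promoters (0.197%). The plan named only the single motifs, and the pair was counted in addition. Its spacing is the one in Trim21 and Trim26, so these shares are a description and not a test. A match of GAAANNGAA alone, on either strand, was found in 3 of 40 (7.5%; 9.71% of all promoters), also in Trim40. The site for STAT factors, TTCNNNGAA, was found on either strand in 1 of 40 (2.5%; 8.87% of all), in Trim31. Matches of the 2 motifs were counted separately, and a match describes these letters only.

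Over the 12 arrays the mean levels of the members ran from 3.81 to 10.24, and their median was 6.01 against 6.55 for all genes. Probes differ in how strongly they bind, so levels are compared here between arrays and not between genes. Of the 49 members, 33 had a mean above background and 27 were above it on all 12 arrays. Trim6, Trim29, Trim42, Trim52 and Trim80 were above it on none. Differences in those 5 members carry no fold.

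**Figure D1:**
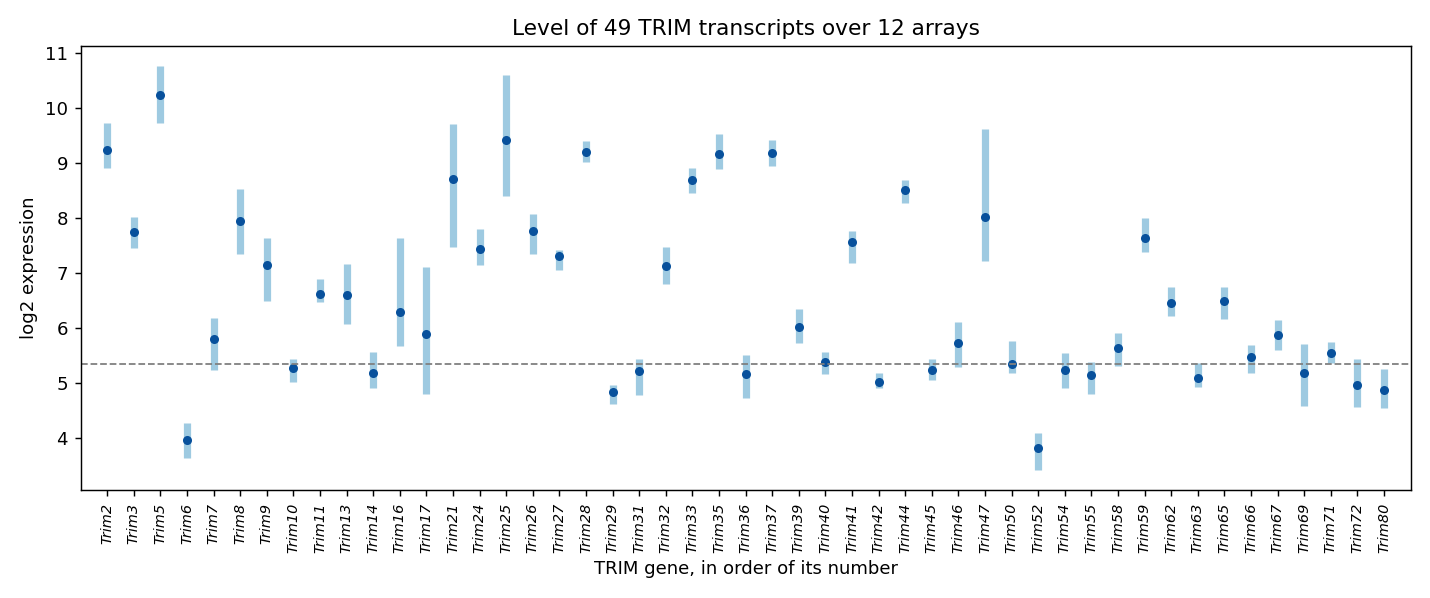
Level of each of the 49 TRIM transcripts on the 12 arrays (log2 expression, vertical axis), in order of gene number; points are means, bars run from the lowest to the highest array, and the dashed line is the background level of 5.34. Trim21, Trim25, Trim47, Trim16 and Trim17 have long bars, and 16 means lie below the line.

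The first comparison, siCon_IFNg against siCon, asks which members IFN-γ changed. Trim21, Trim25, Trim13, Trim26, Trim69 and Trim7 were higher with IFN-γ on the arrays numbered 2 and 3, by 0.49 to 1.53 on the log2 scale. On the arrays numbered 1 these 6 differed by -0.09 to 0.38, Trim26 the most. Over all 12 arrays 0 of 49 members passed the threshold, a limma p below 0.05 after Benjamini-Hochberg adjustment over the whole table, which 0.121% of all genes passed, while 6 members had an unadjusted p under 0.05. With the title number as a block 0 members passed as well (0.936% of all genes). Without replicate 1, that is, without the 4 arrays numbered 1, 7 of 49 passed (4.71% of all genes): the 6 named rose and Trim47 fell. With 2 arrays a group left, that fit pools its spread over the 4 groups.

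Trim21 encodes a cytosolic receptor for the constant part of antibodies that directs antibody-coated viruses to degradation. It stood at 8.92, 8.01 and 7.85 in numbers 1, 2 and 3 of siCon, at 9.10, 9.71 and 9.22 in siCon_IFNg, at 8.99, 7.47 and 7.64 in siCon_IFNg_GW and at 8.93, 9.36 and 9.39 in siSHP_IFNg_GW. Number 1 varied only between 8.92 and 9.10, while numbers 2 and 3 were low in siCon and siCon_IFNg_GW and high in the other groups. The siCon and siCon_IFNg arrays did not overlap. The difference with IFN-γ was 1.08 ± 0.39 (SE, n = 3 arrays a group; limma adjusted p = 0.695). Without replicate 1 it was 1.53 ± 0.15, a 2.88-fold rise (limma adjusted p = 0.000985).

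Trim25, the ligase that attaches ubiquitin to the RNA sensor RIG-I, was likewise higher in siCon_IFNg and siSHP_IFNg_GW than in the other groups in numbers 2 and 3. It stood at 9.35, 9.17 and 9.14 in siCon, at 9.41, 10.60 and 10.54 in siCon_IFNg, at 8.66, 8.80 and 8.92 in siCon_IFNg_GW and at 8.40, 9.96 and 10.10 in siSHP_IFNg_GW. In number 1 the 2 arrays without GW were close together and those with GW were lower. With IFN-γ the difference was 0.96 ± 0.42 (SE, n = 3; limma adjusted p = 0.865), and without replicate 1 it was 1.41 ± 0.09, a 2.66-fold rise (limma adjusted p = 9.16e-05).

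Smaller differences were found in Trim13, a ligase anchored in the endoplasmic reticulum, and in Trim26, which acts on interferon-β signalling. Trim13 stood at 6.43, 6.42 and 6.07 in siCon and at 6.50, 7.10 and 7.17 in siCon_IFNg. The groups did not overlap, by a narrow margin in number 1. The difference was 0.62 ± 0.20 (SE, n = 3; limma adjusted p = 0.576) and 0.89 without replicate 1 (limma adjusted p = 0.0104). Trim26 stood at 7.62, 7.34 and 7.37 in siCon and at 8.0, 7.89 and 7.81 in siCon_IFNg. It was higher in each number, by 0.38, 0.55 and 0.44. Its difference of 0.45 ± 0.13 (SE, n = 3) did not pass (limma adjusted p = 0.436; 0.0232 without replicate 1).

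Trim7, which binds glycogenin, stood at 6.04, 5.51 and 5.48 in siCon and at 6.0, 6.07 and 6.05 in siCon_IFNg. Trim69, an interferon-inducible member, stood at 5.51, 4.62 and 4.57 and at 5.42, 5.35 and 5.24. Both were higher in numbers 2 and 3 and not in number 1, where the pairs differed by -0.04 and -0.09, and in both the groups overlapped. For Trim7 the difference was 0.36 (limma adjusted p = 0.951; 0.56 and 0.0239 without replicate 1). Trim69 passed without replicate 1 (limma adjusted p = 0.0118), but numbers 2 and 3 lay below background in siCon and at it in siCon_IFNg. No fold is therefore read for it in any comparison. Its log2 difference enters list medians and the test of differences by title number, and rests there on arrays below background.

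Trim47, a ligase with a PRY-SPRY domain, went opposite ways. It stood at 8.18, 7.76 and 7.80 in siCon and at 9.63, 7.22 and 7.36 in siCon_IFNg. The pair numbered 1 differed by 1.44 and the pairs numbered 2 and 3 by -0.54 and -0.44. Over all arrays the difference was 0.15 ± 0.56 (SE, n = 3; limma adjusted p = 1), and without replicate 1 Trim47 fell by 0.49 (limma adjusted p = 0.0226).

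Of the 7 measured genes in a list of interferon-linked TRIMs (Trim5, Trim6, Trim14, Trim21, Trim25, Trim26 and Trim69), 6 had a positive difference with IFN-γ and the median was 0.43, against -0.03 for all genes and -0.04 for the 49 members. That median is the value of Trim69, which rests on arrays below background, so it is not read as a size for the list. None of the 7 passed over all 12 arrays, and 4 rose without replicate 1, Trim69 among them. Trim5, whose primate counterparts block incoming retroviruses, stood at 10.60, 10.09 and 9.93 in siCon and at 10.54, 10.76 and 10.26 in siCon_IFNg (0.31; limma adjusted p = 1; 0.50 and 0.149 without replicate 1). Trim14, an adaptor of antiviral signalling at mitochondria, had a difference of 0.00 (95% interval -0.37 to 0.37). Its mean level of 5.19 is below background, with 3 of 12 arrays above it, so a change could go unseen. Trim6, which makes free ubiquitin chains, was below background on every array.

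The other subgroups had medians near that of all genes. They were -0.03 for 6 signalling members, -0.02 for 4 chromatin members, -0.13 for 4 NHL-repeat members, -0.01 for 7 COS-box members, -0.02 for 11 other PRY-SPRY members and -0.08 for 7 members tied to membranes, repair or other roles. All 4 NHL-repeat members were negative, and none of them passed in any of the 3 fits. Trim42, Trim52 and Trim80 stood in no list and were below background on all 12 arrays. Groups did not overlap in 4 members that were higher (Trim13, Trim21, Trim25 and Trim26) and in 3 that were lower (Trim36, Trim59 and Trim63), 7 of 49 against 9.3% of all genes. Trim36 and Trim63 were below background on all arrays of both groups. Trim59 is outside the rule for naming and is given because the count is small. The 29 members not named by rule had differences from -0.34 to 0.15.

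Genes of the same pathway gave a scale for these differences. Irf1, a transcription factor induced early by IFN-γ, rose by 2.91 ± 0.23 (SE, n = 3; limma adjusted p = 0.000706), and it was the 1 gene of 11 measured partners and interferon factors that passed over all 12 arrays. Those 11 had a median of 0.75, and 7 rose without replicate 1. Isg15, which encodes a ubiquitin-like protein induced by interferons, stood at 10.92, 8.09 and 7.58 in siCon and at 11.11, 10.21 and 9.81 in siCon_IFNg. Number 1 was already high without treatment. Pml, a family member under another symbol that builds nuclear bodies, stood at 9.22, 7.92 and 7.90 in siCon and at 9.28, 9.46 and 9.53 in siCon_IFNg (1.08; limma adjusted p = 0.746; 1.58 and 0.000201 without replicate 1). Its values moved in numbers 2 and 3 and not in number 1, like those of Trim21. Mid1, a microtubule-bound member, differed by 0.35 (limma adjusted p = 0.825; 0.54 and 0.00768 without replicate 1).

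Cell type markers were read in this comparison too, and 0 passed over all 12 arrays. Positive differences were found in 2 of 12 microglia markers (median -0.08) and 1 of 7 oligodendrocyte markers (median -0.12). The same held for 1 of 8 meningeal and vascular markers (median -0.09) and 5 of 8 astrocyte markers (median 0.02). All 8 neuron markers had a positive difference with IFN-γ, with a median difference of 0.09, and 0 of them passed over all 12 arrays. The signs of Nefm, Nefl and Snap25 rest on means below background. These were 4.34, 5.20 and 5.05 in siCon and 4.34, 5.33 and 5.31 in siCon_IFNg. Without replicate 1 the median difference was 0.10, 6 of 8 were positive and 1 rose. Tubb3 was 4.48 and 4.80, below background, in numbers 2 and 3 of siCon and 6.51 and 6.56 in siCon_IFNg. Other neuron markers changed little there: Stmn2 was 11.75 and 11.69, then 11.84 and 11.75, and Map2 9.27 and 9.38, then 9.49 and 9.37. The part of any of these cell types in the TRIM differences was not tested. In bulk RNA, fewer cells of a type and less RNA per cell cannot be told apart.

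**Figure D2:**
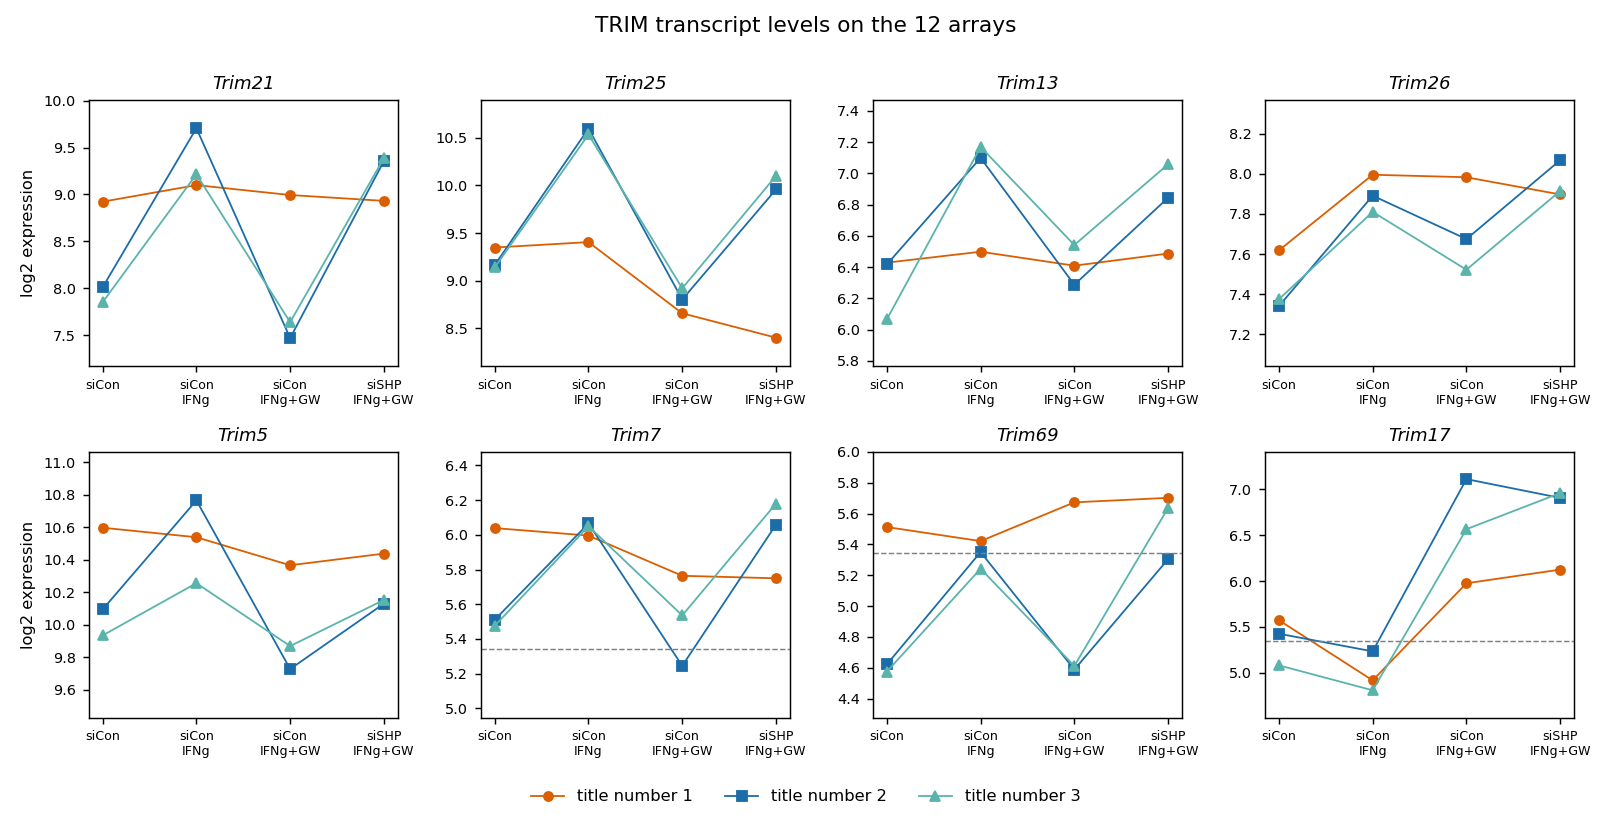
Levels of 8 TRIM transcripts (log2 expression, vertical axes, each with its own range) in the 4 groups; each point is 1 array, lines join arrays of the same title number, and the dashed line is the background level of 5.34. Trim21 and Trim25 rise and fall with the groups in numbers 2 and 3 (Trim21 from 8.01 to 9.71 to 7.47 to 9.36 in number 2), the Trim21 line of number 1 is flat, and Trim17 is higher in both groups with GW in every number.

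Adding GW to IFN-γ, siCon_IFNg_GW against siCon_IFNg, is the next comparison, and it addresses the effect of GW on cells under IFN-γ. It shares the siCon_IFNg arrays with the first, with opposite sign, so each is described by its own values. Trim17 rose, the 1 of 49 members that passed over all 12 arrays (0.886% of all genes passed; 11 members had an unadjusted p under 0.05). With the block 3 members passed (6.55% of all genes): Trim17 and Trim36 rose and Trim25 fell. Without replicate 1, 13 of 49 passed (11.5% of all genes). There Trim17, Trim3, Trim36, Trim46, Trim47 and Trim63 rose and Trim13, Trim21, Trim25, Trim5, Trim69, Trim7 and Trim9 fell.

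Trim17 encodes a ubiquitin ligase studied in the death of neurons. It stood at 5.57, 5.43 and 5.08 in siCon, at 4.92, 5.23 and 4.81 in siCon_IFNg, at 5.98, 7.11 and 6.57 in siCon_IFNg_GW and at 6.13, 6.91 and 6.96 in siSHP_IFNg_GW. All 6 arrays with GW were above all 6 without it. The difference was 1.57 ± 0.29 (SE, n = 3; limma adjusted p = 0.0370; 0.0054 with the block and 0.0012 without replicate 1). The siCon_IFNg arrays were all below background, so the rise is given as a bound, at least 2.31-fold with those arrays set to the background level. By number the differences were 1.06, 1.88 and 1.76. The call was lost, with the difference at 1.28 to 1.69, when replicate 2 or replicate 3 was left out from all groups, from siCon_IFNg or from siCon_IFNg_GW (limma adjusted p = 0.109 to 0.996). It was also lost when the fit held only the 6 arrays compared (limma adjusted p = 0.186) or when arrays were centred on their medians (limma adjusted p = 0.0513).

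Trim25 fell with the block. Its difference was -1.38 ± 0.42 (SE, n = 3; limma adjusted p = 0.190; 0.0305 with the block), and without replicate 1 it was -1.70, a 3.26-fold fall (limma adjusted p = 1.96e-05). All pairs were lower with GW, by -0.75, -1.79 and -1.61, and the groups did not overlap. Trim21 had -1.31 ± 0.39 (SE, n = 3; limma adjusted p = 0.190; 0.0614 with the block). Its groups did not overlap either, although the pair numbered 1 differed by only -0.11. Without replicate 1 it fell by 1.91, or 3.75-fold (limma adjusted p = 0.00021). It also fell when only replicate 1 of siCon_IFNg_GW was left out, by 1.79 (limma adjusted p = 0.0363).

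Trim5, Trim7 and Trim13 had smaller differences of the same sign. Trim5 was at 10.37, 9.73 and 9.87 in siCon_IFNg_GW, for a difference of -0.53 (limma adjusted p = 0.352; -0.71 and 0.0247 without replicate 1). Trim7 was at 5.76, 5.24 and 5.54 (-0.52; limma adjusted p = 0.253; -0.67 and 0.0064 without replicate 1). Trim13 was at 6.41, 6.29 and 6.54 (-0.51; limma adjusted p = 0.335; -0.72 and 0.0159 without replicate 1). In Trim7 the groups did not overlap, and in the other 2 they did. Trim69 was at 5.67, 4.59 and 4.61, below background in numbers 2 and 3, and passed without replicate 1 (limma adjusted p = 0.00702). Trim26 stood at 7.98, 7.67 and 7.52, a difference of -0.17 (95% interval -0.46 to 0.11), and did not pass in any of the 3 fits.

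Beside Trim17, 5 members rose with the block or without replicate 1, of which Trim36, Trim46 and Trim63 are of the COS-box subgroup. Trim36, which binds microtubules, stood at 4.73, 4.98 and 4.85 in siCon_IFNg and at 5.12, 5.45 and 5.51 in siCon_IFNg_GW (0.51 ± 0.13 SE, n = 3; limma adjusted p = 0.131; 0.0178 with the block). All 3 arrays of siCon_IFNg lay below background, and the bound is 1.01-fold. Trim46, which organises microtubules at the start of the axon, stood at 5.93, 5.30 and 5.40 and at 6.12, 5.81 and 5.91 (0.40; limma adjusted p = 0.425; 0.51 and 0.00736 without replicate 1). Trim63, a ligase of muscle, passed without replicate 1 (limma adjusted p = 0.0424), but it stood at 4.97, 4.95 and 4.99 and at 4.93, 5.24 and 5.36, below background on all arrays but 1, and no size is given. Trim3, an NHL-repeat member of neurons, stood at 7.93, 7.45 and 7.48 and at 7.86, 7.84 and 7.82 (0.22; limma adjusted p = 0.687; 0.36 and 0.0412 without replicate 1). Trim9, a COS-box member that guides axons, was lower in numbers 2 and 3 (7.63 and 7.60, then 7.14 and 7.14) and higher in number 1 (6.69, then 7.10), and it fell by 0.47 without replicate 1 (limma adjusted p = 0.0106). Trim47 was lower in number 1 (9.63, then 8.63) and higher in numbers 2 and 3 (7.22 and 7.36, then 7.83 and 7.98), where it rose by 0.62 (limma adjusted p = 0.00444 without replicate 1).

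The median difference with GW was 0.08 over the 49 members, of which 33 were positive, against 0.00 over all genes. The 7 interferon-linked members had a median of -0.38, with 1 positive, and the 11 partners and interferon factors had -0.88. The -0.38 is again the value of Trim69, with arrays below background. For 6 signalling members the median was 0.18, for 4 chromatin members 0.17, for 4 NHL-repeat members 0.15, for 7 COS-box members 0.02, for 11 other PRY-SPRY members 0.12 and for the 7 of membranes and repair 0.04. Groups did not overlap in 8 members that were higher and 3 that were lower (Trim21, Trim25 and Trim7), 11 of 49 against 15.3% of all genes. The members not named by rule lay between -0.18 and 0.33. Among them were Trim11, which neighbours Trim17 with no protein-coding gene between them in GRCr8, at 0.27 (limma adjusted p = 0.267), and Trim41, which neighbours Trim7 in the same way, at 0.33 (limma adjusted p = 0.182). Both were named for their place next to a member already described.

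Of the 12 microglia markers 11 had a negative difference with GW. None passed over all 12 arrays, 7 fell with the block, and 8 fell and 1 rose without replicate 1. Their median was 9.12, 9.01 and 9.05 in siCon_IFNg and 8.47, 8.59 and 8.67 in siCon_IFNg_GW, and it was 8.64, 8.74 and 8.63 in siSHP_IFNg_GW. Their part in the lower TRIM values was not tested.

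Against siCon, the group with IFN-γ and GW shares arrays with both comparisons above. Trim17 was the member with the largest difference, 1.19 ± 0.29 (SE, n = 3; limma adjusted p = 0.105), and over all 12 arrays 0 of 49 passed (0.864% of all genes; 2 members had an unadjusted p under 0.05). With the block Trim17 rose 2.28-fold (limma adjusted p = 0.0162), as 1 of 49 members against 6.84% of all genes. Without replicate 1 it rose by 1.59 (limma adjusted p = 0.00538), again as 1 of 49 against 5.66%. Trim21 and Trim25 were near or below their siCon values, at -0.23 and -0.42 (95% intervals -1.09 to 0.63 and -1.34 to 0.50). Irf1 was 2.35 ± 0.23 above siCon (SE, n = 3, limma adjusted p = 0.00168), unlike the other partners and interferon factors. Isg15, Irf7, Irf9, Stat2 and Sting1 had means of 8.32, 9.23, 8.63, 9.59 and 6.02, below 8.86, 9.57, 8.76, 9.70 and 6.35 in siCon. Ifih1, Mavs, Tbk1, Ikbke and Irf3 were above siCon by less than Irf1. Pml stood at 8.36 against 8.35. All 12 microglia markers had a negative difference here, with a median of -0.57; 1 fell over all 12 arrays, 11 with the block and 6 without replicate 1, and their part was not tested. Trim72, a membrane repair protein of muscle, differed by 0.30 (limma adjusted p = 0.648), and its values of 4.56 to 5.23 in these groups were all below background.

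The comparison of siSHP_IFNg_GW with siCon_IFNg_GW asks what SHP siRNA changed in cells given both agents. It shares the siCon_IFNg_GW arrays with the comparisons above. Over all 12 arrays 0 of 49 members passed and so did 0% of all genes, with and without the block. Of the members, 2 had an unadjusted p under 0.05 (limma). Without replicate 1, 4 of 49 members rose (1.47% of all genes passed): Trim21, Trim25, Trim69 and Trim7. None fell.

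Trim21 was higher with SHP siRNA in numbers 2 and 3, by 1.88 and 1.75, and not in number 1 (-0.06). The difference was 1.19 ± 0.39 (SE, n = 3; limma adjusted p = 1; 0.721 with the block). Without replicate 1 it was 1.82 ± 0.15, a 3.52-fold rise (limma adjusted p = 0.000823). Its groups overlapped because of number 1.

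Trim25 was higher as well in numbers 2 and 3, by 1.15 and 1.18, and was lower by 0.26 in number 1. The difference was 0.69 ± 0.42 (SE, n = 3; limma adjusted p = 1), and without replicate 1 it was 1.17, a 2.25-fold rise (limma adjusted p = 0.000414). Trim69 stood at 5.70, 5.30 and 5.64 with SHP siRNA against 5.67, 4.59 and 4.61 without it, and passed without replicate 1 (limma adjusted p = 0.0083) with its lower arrays below background. Trim7 stood at 5.75, 6.06 and 6.18 (0.48; limma adjusted p = 1; 0.73 and 0.0148 without replicate 1).

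Trim13, at 6.49, 6.84 and 7.06, and Trim26, at 7.90, 8.07 and 7.91, were higher in numbers 2 and 3 and did not pass (limma adjusted p = 0.203 and 0.138 without replicate 1). Trim17 did not differ beyond its spread: the difference was 0.11 ± 0.29 (SE, n = 3), with a 95% interval of -0.53 to 0.76. Trim36 had -0.12 (95% interval -0.41 to 0.17) and Trim46 -0.25 (95% interval -0.64 to 0.14).

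The 7 interferon-linked members had a median of 0.25 with 5 positive, against -0.02 for all genes and -0.04 for the 49 members. The partners and interferon factors had a median of 0.97, and 6 of 11 rose without replicate 1. Of 8 neuron markers 6 were positive with a median difference of 0.05, 0 passed over all 12 arrays and 2 rose without replicate 1. The means of Nefm, Nefl and Snap25 lay below background in both groups. Of 12 microglia markers 10 were positive with a median of 0.09, and 0 passed in any of the 3 fits. The part of either was not tested. Irf1 had 1.02 ± 0.23 (SE, n = 3; limma adjusted p = 1; 1.37 and 0.000231 without replicate 1). Pml stood at 9.31, 7.78 and 7.99 in siCon_IFNg_GW and at 9.37, 9.09 and 9.38 with SHP siRNA, higher in numbers 2 and 3 (1.35 and limma adjusted p = 0.000904 without replicate 1). The other subgroups had medians from -0.08 to -0.01. Groups did not overlap in 0 members that were higher and 4 that were lower (Trim11, Trim40, Trim45 and Trim46), against 6.47% of all genes. Trim11, Trim40 and Trim45 are outside the rule for naming and are given because the count is small. All Trim45 arrays of siSHP_IFNg_GW lay below background.

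The comparisons of IFN-γ with siCon and of SHP siRNA with its control share no arrays, though they share the estimate of spread. Without replicate 1, 6 members rose in the first and 4 in the second, and the 4 (Trim21, Trim25, Trim69 and Trim7) were among the 6. That is 66.7% of the first list and 100% of the second. Over all genes 554 rose in the first and 246 in the second, and 224 in both, which is 40.4% and 91.1%, so the overlap is not shown to be particular to the TRIM genes. Trim13 and Trim26 were the others of the first list, at 0.54 and 0.39 in the second.

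**Figure D3:**
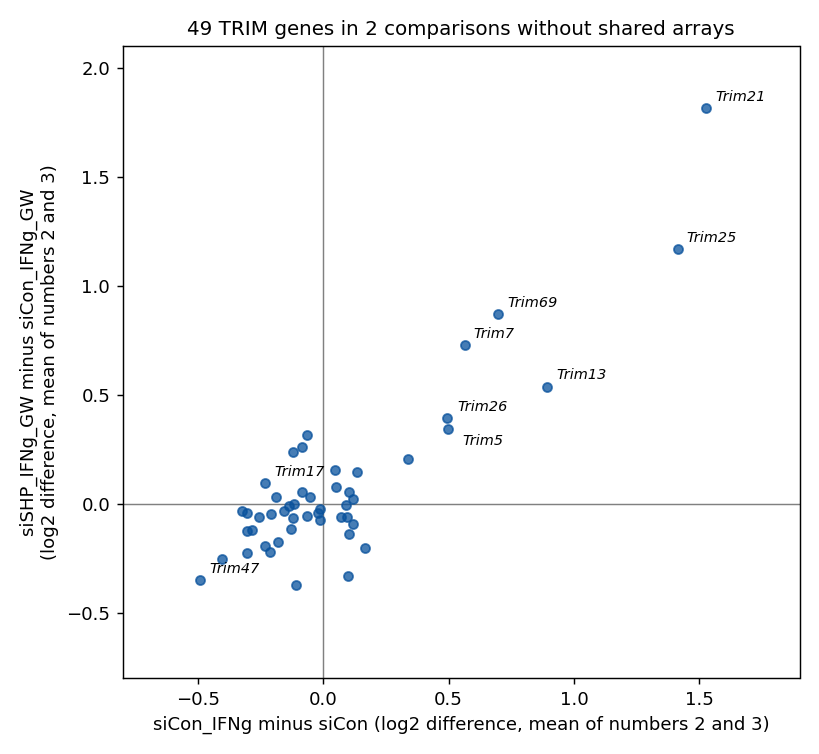
Difference with IFN-γ (horizontal axis) and with SHP siRNA under IFN-γ and GW (vertical axis) for 49 TRIM genes, each the mean log2 difference of the pairs numbered 2 and 3. Most genes lie near 0 on both axes, and Trim21 (1.53 and 1.82), Trim25 (1.41 and 1.17), Trim7 (0.56 and 0.73) and Trim13 (0.89 and 0.54) lie toward the upper right. The point of Trim69 rests on values below background.

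Set side by side by title number, several members had other differences in the pair numbered 1 than in the pairs numbered 2 and 3. A model with separate terms for number 1 was fitted to these differences, for GW and SHP siRNA after the values were seen. Number 1 is a single array in each group, so its own spread is not measured: the spread comes from the other arrays, and the lone array is assumed to vary like them. For IFN-γ 4 members passed (2.43% of all genes): the difference of Trim21 was 1.35 ± 0.27 smaller in number 1 and that of Trim25 1.36 ± 0.15 smaller, while that of Trim47 was 1.93 ± 0.16 and that of Trim16 1.06 ± 0.17 larger (SE; limma adjusted p = 0.0456, 0.00424, 0.00119 and 0.0180). For GW 6 members passed (3.02% of all genes): Trim21, Trim25, Trim69, Trim9, Trim47 and Trim16. Trim69 did not pass there with median centring or quantile normalization (limma adjusted p = 0.0724 and 0.0935), and its lower arrays are below background. For SHP siRNA 2 passed (0.721% of all genes), Trim21 and Trim25. In fits of only the 2 groups compared, the members left for IFN-γ were Trim25 and Trim47 (1.15% of all genes). For GW it was Trim47 (1.11%) and for SHP siRNA Trim21 (0.341%). Trim17 did not pass in any of the 3, with -0.76 ± 0.36 for GW (SE; limma adjusted p = 0.326).

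**Figure D4:**
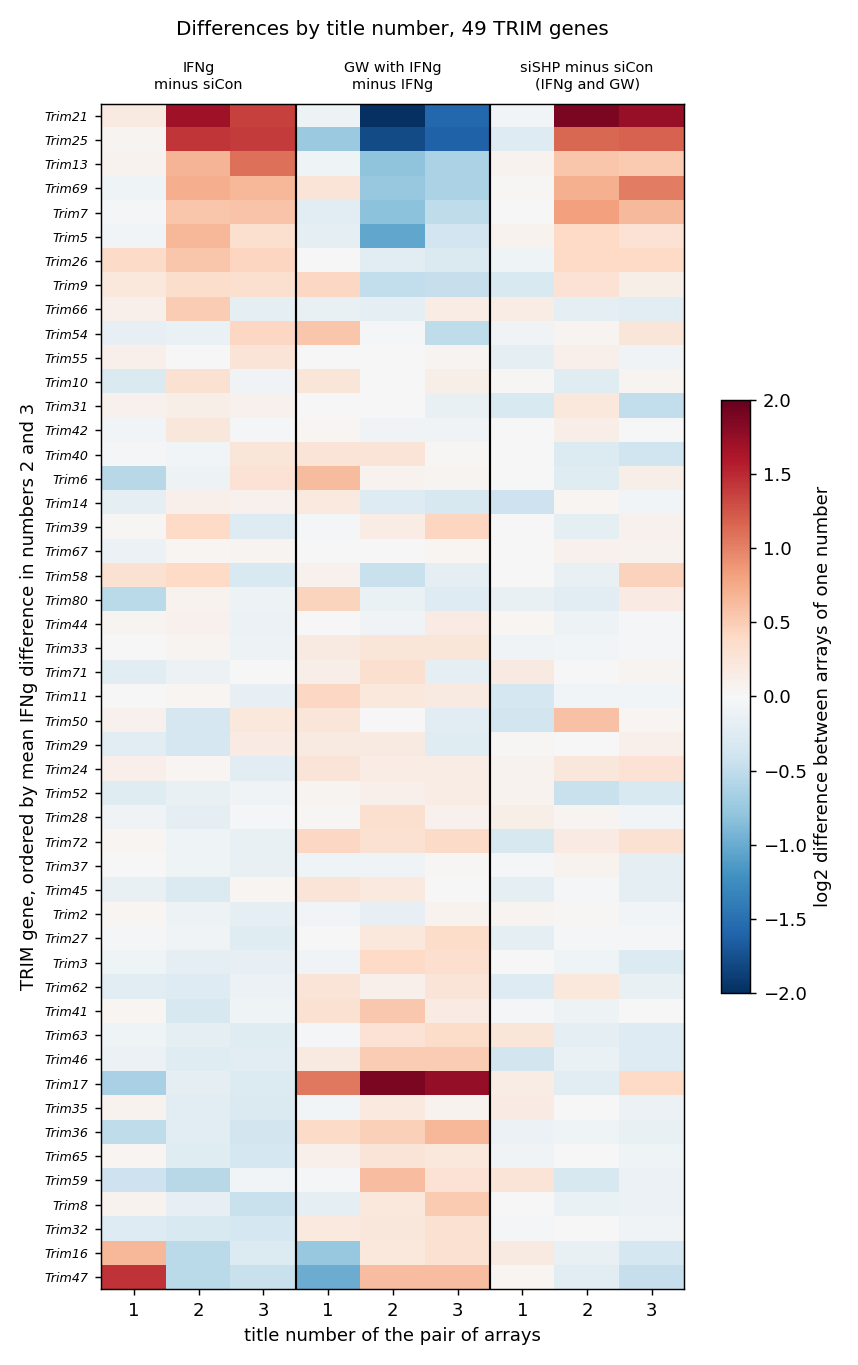
Log2 difference between arrays of the same title number for 49 TRIM genes (rows) in 3 comparisons of 3 pairs each (columns); red is higher and blue lower, and colours end at 2.0 in either direction. Trim21 and Trim25 change colour between comparisons in pairs 2 and 3 and are pale in pair 1 for IFN-γ and SHP siRNA, Trim17 is red in all 3 pairs with GW, and Trim47 is red in pair 1 and blue in pairs 2 and 3 with IFN-γ.

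The last comparison set number 1 against numbers 2 and 3 across the 4 groups, with the group as a term. Of the 49 members 23 passed (37.6% of all genes), 16 higher and 7 lower in number 1 (20.4% and 17.2% of all genes). With each array centred on its median the split was 19 higher and 3 lower (30% and 11.5% of all genes). With quantile normalization it was 18 and 6 (26.7% and 16.6%). The split of all genes thus moved with the scaling as well. Number 1 lay on the same side of numbers 2 and 3 in all 4 groups in 18 members, 13 above and 5 below, which is 36.7% against 35.1% of all genes. By the latter count the members differed with the title number about as often as genes in general. What the number stands for is not known, and which 4 arrays come from the earlier series is not known either.

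Trim16 and Trim47 had the largest differences. Trim16, which helps clear damaged lysosomes, stood at 6.97, 6.20 and 6.03 in siCon, at 7.63, 5.67 and 5.76 in siCon_IFNg, at 6.87, 5.88 and 6.06 in siCon_IFNg_GW and at 7.05, 5.73 and 5.70 in siSHP_IFNg_GW. Number 1 was above the others in each group, and it was highest with IFN-γ alone, where numbers 2 and 3 were lower than in siCon. The difference of number 1 was 1.25 ± 0.15, or 2.38-fold (SE, 4 arrays against 8; limma adjusted p = 9.8e-05). Trim47 was higher by 1.15 ± 0.24, or 2.21-fold (SE; limma adjusted p = 0.00336), and the difference by group ran from 0.40 in siCon to 2.34 in siCon_IFNg.

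Trim8, which acts on SOCS1 and on NF-κB signalling, stood at 8.45, 8.53, 8.34 and 8.35 in number 1 of the 4 groups, against 7.36 to 7.87 on the other arrays. Trim2, an NHL-repeat ligase for neurofilament light chain, stood at 9.67 to 9.72 in number 1 and at 8.90 to 9.17 on the others. Neither overlapped, and the differences were 0.70 ± 0.09 and 0.68 ± 0.06 (SE; limma adjusted p = 0.000157 and 1.8e-05). Lower in number 1 were Trim9 (6.49 to 7.10 against 7.14 to 7.63; -0.57 ± 0.12 SE, limma adjusted p = 0.00345) and its relative Trim67 (5.60 to 5.73 against 5.86 to 6.15; -0.36 ± 0.06 SE, limma adjusted p = 0.000829). Trim67 was given with Trim9 because the pair are paralogs, after its values were seen. Trim25 was lower by 0.70 ± 0.24 (SE; limma adjusted p = 0.0392; 0.0619 with arrays centred on their medians), and by group the difference was -1.16 in siCon_IFNg and -1.63 in siSHP_IFNg_GW against 0.20 and -0.20 in the other groups.

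By subgroup, number 1 was higher in 3 and lower in 1 of the 7 interferon-linked members (median 0.32, against 0.03 for all genes). The 0.32 is the value of Trim14. Trim14 and Trim69, among the higher members, both have a mean of 5.19, below background. Number 1 was higher in 3 of 4 NHL-repeat members (median 0.30). Among 7 COS-box members 2 were higher and 3 lower (median -0.10), and among 7 members of membranes and repair 1 was higher and 3 lower (median -0.11). Of the 6 signalling members 2 were higher, of the 4 chromatin members 2 and of the 11 other PRY-SPRY members 3, with 0 lower. Markers of all the cell types listed moved with the title number. In number 1, 5 of 8 meningeal and vascular markers were lower (median -1.47), 7 of 12 microglia markers were higher and 1 lower (median 0.32), and 1 of 8 astrocyte markers was higher and 5 lower (median -0.24). Of 8 neuron markers 3 were lower (median -0.12), and of 7 oligodendrocyte markers 1 was higher and 2 lower (median -0.12). Their part in the TRIM differences was not tested.

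**Figure D5:**
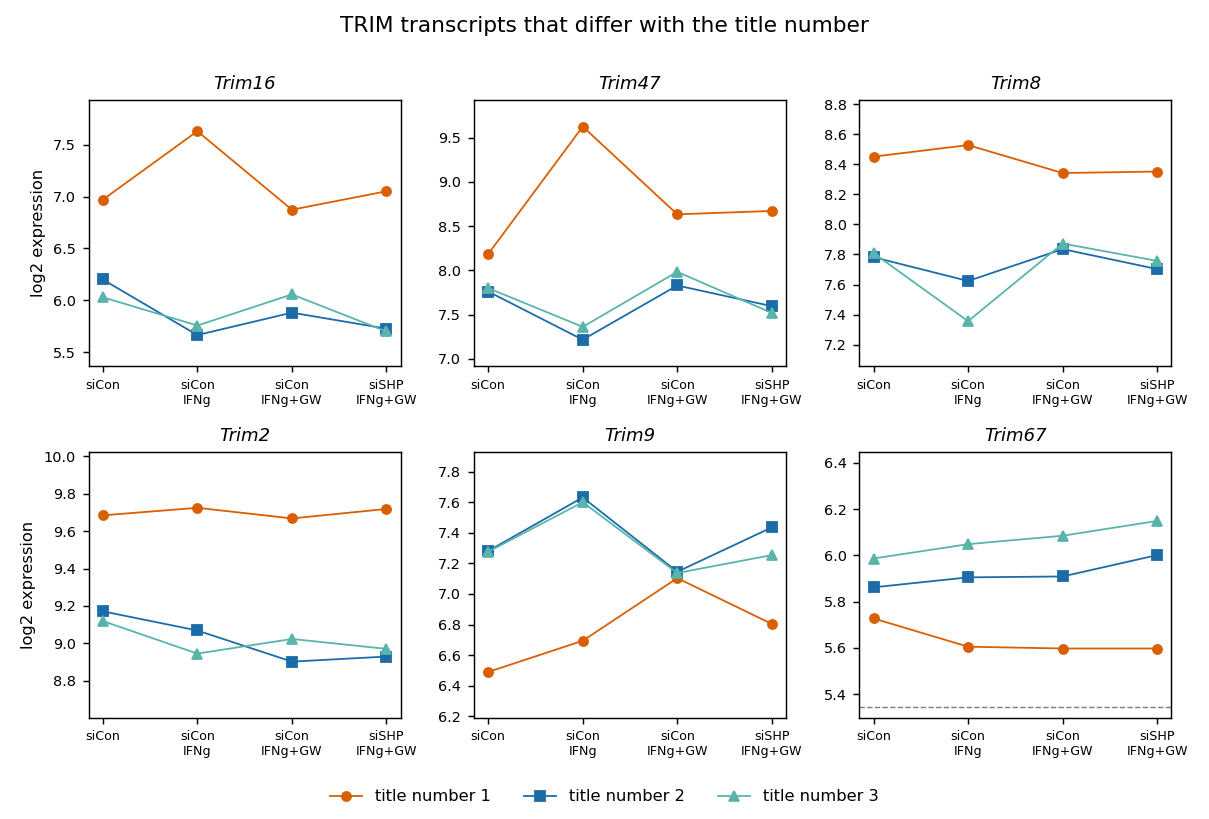
Levels of 6 TRIM transcripts (log2 expression, vertical axes, each with its own range) in the 4 groups; each point is 1 array, lines join arrays of the same title number, and the dashed line is the background level of 5.34. Number 1 lies above numbers 2 and 3 in all 4 groups for Trim16, Trim47, Trim8 and Trim2 and below them for Trim9 and Trim67, and Trim47 of number 1 reaches 9.63 in siCon_IFNg.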

How the data were processed

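The deposited table holds log2 values, 1 per probe set and array, made by the authors; the log base was read from their range (1.01 to 13.43). The sources used here do not give their normalization. Array medians over all rows were 5.51 to 5.67, and columns of other samples numbered 0. Of 36685 rows, 18511 were paired with 1 gene, 575 with several and 17599 with none in the array annotation. By Entrez ID 18394 matched RefSeq assembly GRCr8, including all 49 members. For 291 genes with several rows the row with the highest mean was kept, which left 18166 genes.

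All genes were fitted with limma 3.58.1 in R 4.3.3 on 4 group means over 12 arrays, with Benjamini-Hochberg adjustment over all genes and a threshold of 0.05. The fits were tested on simulated data. Deviations from the group means correlated between arrays of the same title number (0.632 to 0.771 for number 1, 0.479 to 0.578 for number 2, 0.426 to 0.548 for number 3). Deviations within a group cancel out, so a difference of number 1 alone makes the arrays numbered 2 and 3 correlate too. The correlations therefore set number 1 apart and cannot show that numbers 2 and 3 are paired across groups. Pairs and the block follow the titles, and the labels state no pairing. Alternatives were a replicate block, other scalings, a filter on dim genes, the rows used, the eBayes prior, the arrays fitted and arrays left out. Fits with the block on numbers 2 and 3 alone, and those for the GW and SHP differences by number, were added after seeing the data.

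Members and lists were chosen with earlier results of these data known. Named members are those called in any of 3 fits, the interferon-linked list, the 3 with the largest difference in each comparison, and the highest and lowest mean. Figures used matplotlib 3.10.9 in Python 3.11.15. The number of arrays limits the precision.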

Additional observations from a re-analysis of the deposited data

Results flagged for a closer look

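In 12 cases the change in a TRIM transcript on the arrays numbered 1 passed a test of its difference from the change on those numbered 2 and 3, the interaction term of limma. Number 1 has 1 array a group, whose spread is assumed and not measured. The 12 cases are not independent, since genes recur and comparisons share arrays. They fall in Trim21, Trim25, Trim47, Trim16, Trim69 and Trim9. In fits of only the 2 groups compared, 4 of the 12 passed: Trim25 and Trim47 with IFN-γ, Trim47 with GW and Trim21 with SHP siRNA. With IFN-γ the difference in the change (number 1 minus the others) was -1.35 ± 0.27 for Trim21 (SE; limma adjusted p = 0.0456), -1.36 ± 0.15 for Trim25 (adjusted p = 0.00424), 1.93 ± 0.16 for Trim47 (adjusted p = 0.00119) and 1.06 ± 0.17 for Trim16 (adjusted p = 0.0180).

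With GW it was 1.80 ± 0.27 for Trim21 (SE; limma adjusted p = 0.0136), 0.96 ± 0.15 for Trim25 (adjusted p = 0.0165), 0.95 ± 0.20 for Trim69 (adjusted p = 0.0482), 0.88 ± 0.15 for Trim9 (adjusted p = 0.0216), -1.61 ± 0.16 for Trim47 (adjusted p = 0.00259) and -1.01 ± 0.17 for Trim16 (adjusted p = 0.0213). The Trim69 value rests on arrays below background. The IFN-γ and GW values share the siCon_IFNg arrays with opposite sign. The GW and SHP siRNA values share the siCon_IFNg_GW arrays in the same way. With SHP siRNA it was -1.88 ± 0.27 for Trim21 (SE; limma adjusted p = 0.0279) and -1.42 ± 0.15 for Trim25 (adjusted p = 0.00846).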

How the results depend on the processing

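The count of members called with GW was 1 over all 12 arrays and 3 with the replicate block (0.886% and 6.55% of all genes). It was 0 in a fit of only the 2 groups compared and 0 with median centring (0.022% and 0.435%). Against siCon, IFN-γ with GW gave 1 with the replicate block in place of 0 (6.84% and 0.864%). With the block on numbers 2 and 3 alone the counts were 7 for IFN-γ, 12 for GW and 4 for SHP siRNA (4.02%, 9.78% and 1.27%). IFN-γ with GW against siCon had 1 there (4.29%). The block changed no other count of members called. Leaving out arrays gave 0 to 7 members for IFN-γ, 0 to 13 for GW, 0 to 4 for SHP siRNA, 0 to 1 for IFN-γ with GW against siCon and 17 to 22 for the title number. The upper ends of the treatment counts came from leaving out replicate 1, where 4.71%, 11.5%, 1.47% and 5.66% of all genes passed. For the title number 33.1% to 36.7% of all genes passed. The title number had 13 members with siCon alone (23.1% of all genes), where number 1 is 1 array. In fits of only the groups compared, title number interactions kept 2 of 4 members for IFN-γ (Trim25 and Trim47, 1.15% of all genes). They kept 1 of 6 for GW (Trim47, 1.11%) and 1 of 2 for SHP siRNA (Trim21, 0.341%). With median centring the median of all genes in the GW interaction moved from -0.03 to -0.14. Trim47 changed sign: with IFN-γ it was -0.49 with the block on numbers 2 and 3 and -0.63 to 0.58 when arrays were left out, and with GW it was -0.35 to 0.86 when arrays were left out, against 0.15 and 0.08. The cause was not tested. Of 551 values of 42 single-gene results under these alternatives, 476 kept their direction and side of the threshold, 49 newly passed, 18 no longer passed and 8 changed sign. Members near background, 16 of 49 by their mean, have values too close to background for a fold.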
